A study of Danio rerio with 6 samples.

Results

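Mutually exclusive exons are pairs of neighbouring exons of which a transcript keeps the first or the second, but not both. The pair often arose by duplication of an exon, so its members can match in length and swap a short stretch of a protein without shifting the reading frame; tropomyosins, pyruvate kinase and fibroblast growth factor receptors are the textbook cases in vertebrates. Rbm24 is an RNA-binding protein of muscle, heart and lens that is known in vertebrates as a regulator of exon choice in muscle and of transcript stability. The events described here are all 560 rows that the authors' splicing results hold for this class, of 3772 rows in 5 classes of event. Each row names a gene, the exon of the pair that comes first in transcription (the 5′ exon), the exon that follows it (the 3′ exon) and the flanking exons, with read counts and levels in 6 libraries.

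The libraries come from whole zebrafish embryos of the AB strain at 33 hours post fertilization. The mutant group holds 3 libraries of embryos with an 8 bp deletion in rbm24a made with TALENs, site-specific nucleases, and the wild-type group holds 3 libraries of embryos without it. The exon of the deletion is left out, as the labels of the 3 mutant libraries name unlike exons. Whether each library came from a separate clutch is not given, so p-values measure the spread between these libraries only. Total gene counts were 13905380 to 16043155 in the mutant libraries and 13242789 to 14416794 in the wild-type libraries. Mutant replicate 2 stood apart from the other mutant libraries on the second principal component of the gene counts, at -41.19 against 22.81 and 12.49. The count of rbm24a itself was 288, 514 and 366 in the mutant libraries, against 204, 247 and 211 in the wild-type libraries, and a gene count cannot show a deletion of 8 bp. Of 19 markers of muscle, heart, lens, blood, neurons, epidermis and other tissues, 18 were at 1 FPKM or more in all 6 libraries; fabp10a, a liver marker, was not.

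The 560 rows lie in 351 genes on all 25 chromosomes and name 547 distinct exon pairs made from 886 distinct exons. Many of these exons share bases with another one: merging exons that overlap on a strand left 795 places, and the rows fell into 442 pairs of places, of which 391 had a single row. Single exons had a median length of 99.5 bp, from 3 to 1345 bp, with quartiles at 69 and 142.75 bp, and 36 were microexons of 30 bp or less. A length that is a multiple of 3 was found for 429 of the 886 exons (48.4%), against 1053 of the 1756 distinct skipped exons in the sheet of that class (60.0%), whose median length was 87 bp. The share was lower for the exons of these pairs; the difference was not tested.

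The exons of a pair had the same length in 94 of the 547 pairs (17.2%), in 52 genes, and in 33 more the lengths differed by 1 to 3 bp. Where the lengths differed, the median difference was 38 bp and the largest 1014 bp, and the 5′ exon was the longer in 232 pairs and the 3′ exon in 221. A difference that is 0 or a multiple of 3, which leaves the frame after the pair the same whichever exon is used, was found in 309 pairs (56.5%). Among the 453 pairs of unequal length it was found in 215 (47.5%). Of the 94 pairs of equal length, 57 had a length that is itself a multiple of 3 and 37 had not.

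**Figure D1:**
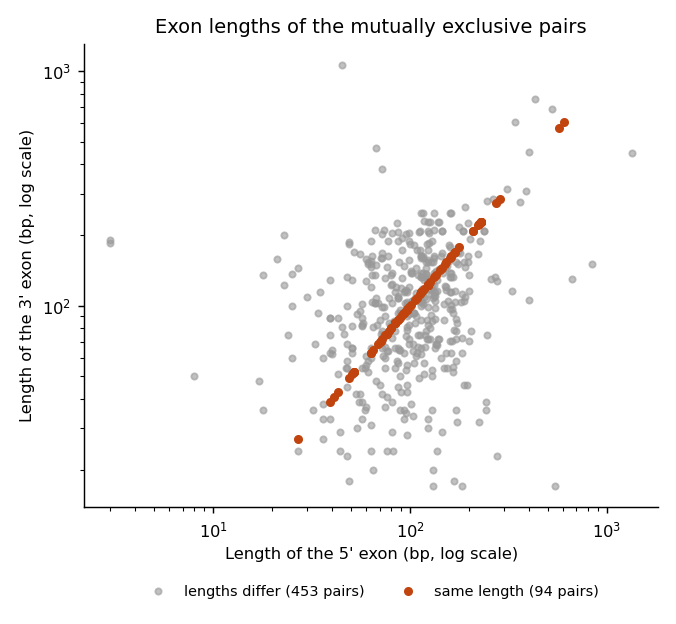
Length of the 3′ exon (vertical axis, bp, log scale) against length of the 5′ exon (horizontal axis, bp, log scale) for the 547 distinct exon pairs, each a point. The 94 pairs of equal length lie on the diagonal and most of them are near the median exon length of 99.5 bp, while the other 453 pairs are spread around it.

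Pairs of equal length were unevenly spread over their 52 genes. Of the 94 pairs matn4 held 12, znf740a 9 and the keratin gene cyt1l 6, and 38 genes had a single one. matn4 (ENSDARG00000015947) encodes matrilin 4, an extracellular matrix protein built from repeated EGF-like units, and its 12 equal pairs combine exons of 123 bp between bases 52816786 and 52828804 of chromosome 6 (GRCz11, the assembly of all coordinates given). In znf740a (ENSDARG00000070939), which encodes a zinc finger protein, the 9 equal pairs are of 84 bp.

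The stretch between the exons of a pair had a median of 2921.5 bp for pairs of equal length and 2415 bp for the others. Over 10 kb lay between the exons in 22 equal pairs (23.4%), against 43 unequal pairs (9.5%), and the largest gap was 151388 bp, in zgc:174855. These 22 far pairs belong to 13 genes, among them hbbe1.1 and hbae1 (embryonic globins), aldh2.1 (a mitochondrial aldehyde dehydrogenase), gsta.1 (a glutathione transferase), cyp2aa9 (a cytochrome P450), uqcrc2a (a core subunit of respiratory complex III) and the cathepsin L-like genes zgc:174855 and si:dkey-239j18.2. In the RefSeq annotation of another assembly, GRCz12tu, several of these genes stand beside a gene of the same family: aldh2.1 beside aldh2.2, gsta.1 near gsta.2, cyp2aa9 among cyp2aa8 and cyp2aa1, si:dkey-239j18.2 between ctslb.4 and ctslb, and the globins in alternation. For matn4, znf740a, rock2b, map7d1b and uqcrc2a, which also have far equal pairs, the nearest coding genes had no name of the same family. Some of those neighbours have placeholder names only. Whether a far exon belongs to the named gene or to its neighbour was not tested, since an annotation of GRCz11 was not used here. In 8 pairs no base lay between the exons.

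Of the 351 genes, 274 had a single row, 53 had 2 and 24 had 3 or more, and the 10 genes with most rows held 130 rows (23.2%). cyt1l (ENSDARG00000036832, a type I keratin) alone had 47 rows, built from 28 exons that share their ends in many combinations and fall into 5 pairs of places on chromosome 19. The pair of places with most of them, 30 rows, joins exons within 5446906 to 5447067 with exons within 5440759 to 5441006, and in all 30 the 5′ exon was higher in the mutant, by 3.97 to 20.07 percentage points. The neighbouring pair of places, with 9 rows, had 3 rows higher and 6 lower in the mutant, and the pair whose 3′ exons lie within 5441007 to 5441139 had 5 rows, all lower. In all 47 rows the exons are between 5813 and 6033 bp apart. In the RefSeq annotation of GRCz12tu cyt1l stands between 2 other keratin genes, krt92 and cyt1. Whether all 28 exons belong to cyt1l or some to a neighbouring keratin gene was not tested. The rows of a gene share exons and reads, so they are not separate measurements.

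Others among the genes with most rows were matn4 with 19, adgrl2a (a latrophilin, an adhesion receptor) with 11, znf740a with 10, hnrnpa1b with 9, neb (nebulin, of the thin filament of muscle) with 7, ENSDARG00000103682 and cdc14b (a phosphatase) with 6 each and zgc:174855 with 5. adgrl2a, znf740a and hnrnpa1b had 0 rows that reached 20 reads in every library. cdc14b reached it in all 6 rows, and in none of them did the levels of the groups part; its differences ran from -6.57 to 4.37 points.

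**Figure D2:**
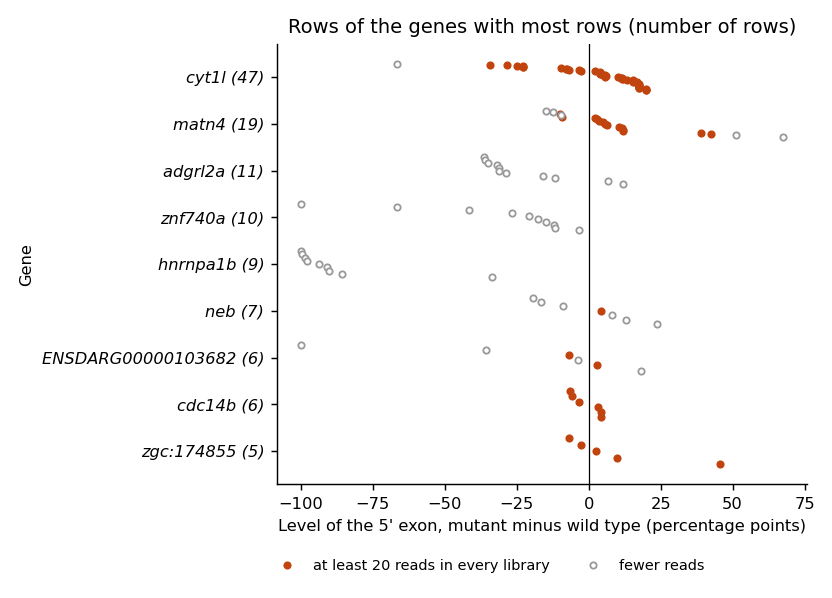
Difference in the level of the 5′ exon, mutant minus wild type (horizontal axis, percentage points), for every row of 9 of the genes with most rows (vertical axis, number of rows in brackets); filled points have at least 20 reads in every library. The rows of cyt1l lie on both sides of 0, with 34 higher and 13 lower in the mutant, and the rows of hnrnpa1b and znf740a are all lower and all open.

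hnrnpa1b (ENSDARG00000036675) encodes an hnRNP A1 protein, which binds RNA and takes part in splicing. Its 9 rows pair versions of an exon that starts at base 36209226 of chromosome 23 with an exon that starts at 36209607. Reads of the 5′ exon summed to between 0 and 5 over the 3 mutant libraries, against between 831 and 1403 over the 3 wild-type libraries. Reads of the 3′ exon summed to between 1 and 58 in the mutant, against between 2 and 32 in wild type. The mutant levels rest on few reads, and the groups were far apart in the reads of the 5′ exon. The gene count did not pass the test (8783, 6917 and 9961 in the mutant libraries and 7730, 8269 and 9196 in the wild-type libraries; adjusted p = 0.998 by edgeR).

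In the authors' deposited table, 499 of the 560 rows (89.1%) passed a false discovery rate (FDR) of 0.05. The 5′ exon was higher in the mutant in 274 of them (48.9% of the 560) and lower in 225 (40.2% of the 560). In the authors' deposited table the highest p of the sheet is 0.0497 and the smallest difference is 0.021 on the 0 to 1 scale, so the rows were picked for their differences, their levels are described here without a test, and these shares say nothing about all exon pairs of the genome. The last row inside the threshold, in map7d1b, has 0.0489 as its FDR and the first outside it, in si:ch211-80h18.1, has 0.0501 (both from the authors' deposited table). By gene, 309 had a row that passed: 154 with higher rows only, 126 with lower rows only and 29 with both.

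Depth divided the rows. The reads of the 2 exons summed to a median of 374.5 per row over the 6 libraries, from 2 to 190947. At least 20 reads in every library were found in 332 rows of 203 genes, and their median difference in size was 6.77 points. The other 228 rows had a median of 24.88 points. In 14 rows the level differed by the full 100 points, and none of them had more than 18 reads in all.

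Among the 332 rows the 3 mutant levels and the 3 wild-type levels did not overlap in 152 (45.8%), of 76 genes. The 5′ exon was higher in the mutant in 105 rows of 50 genes and lower in 47 rows of 31 genes, with some genes in both. In the sheet of skipped exons the levels did not overlap in 292 of 727 rows (40.2%). cyt1l gave 43 of the 152, and without it the count was 109 of 286 (38.1%). With a single row per gene, the one with most reads, it was 69 of 203 (34.0%). Pairs of equal length parted in 37 of 67 rows (55.2%), with a median difference of 10.43 points, and the others in 115 of 265 (43.4%), with a median of 6.17 points. Far equal pairs, over 10 kb apart, parted in 10 of 14 rows of 9 genes. Equal pairs within 10 kb parted in 27 of 53 rows of 25 genes, and unequal pairs over 10 kb apart in 12 of 30 rows of 22 genes. These are counts of rows picked by p, and the difference between the classes was not tested.

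Both exons were in use in most of these rows. The mean level of the 5′ exon lay between 0.1 and 0.9 in 296 of the 332 rows in the mutant and in 273 in wild type, below 0.1 in 22 in the mutant and 48 in wild type, and above 0.9 in 14 in the mutant and 11 in wild type. The exon with the larger share of the reads of its pair, normalised for length, changed in 68 rows. In 40 of those, from 23 genes, the levels did not overlap. This share covers the reads of the pair only, so it does not show which transcript of a gene was the most abundant. The median spread within a group was 0.0415 (SD, n = 3) in the mutant and 0.0311 in wild type.

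**Figure D3:**
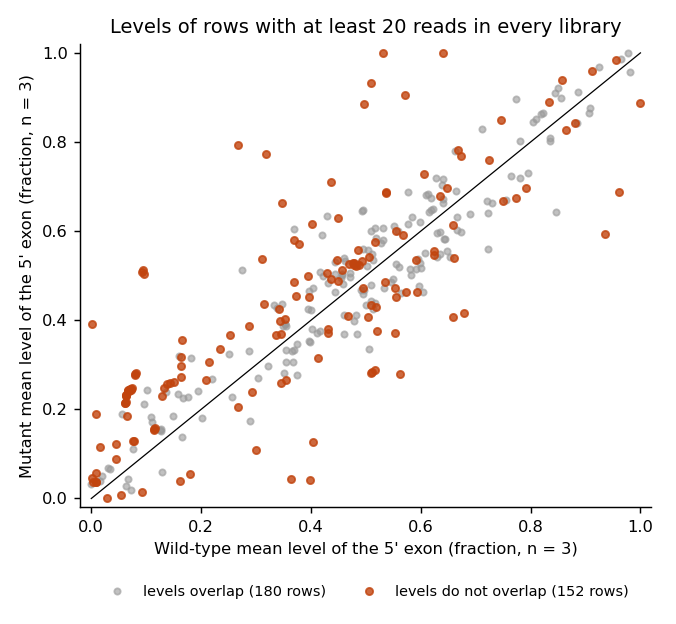
Mean level of the 5′ exon in the mutant (vertical axis, fraction, n = 3) against wild type (horizontal axis, fraction, n = 3) for the 332 rows with at least 20 reads in every library. The 152 rows whose levels do not overlap lie on both sides of the line of equality, 105 above it (50 genes) and 47 below it (31 genes).

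Among the largest rises was that of hmga1a (ENSDARG00000028335), which encodes a chromatin protein with AT-hooks. Its 5′ exon of 107 bp (chr23:3815454-3815560, minus strand) had levels of 0.392, 0.369 and 0.412 in the mutant libraries, against 0.002, 0.001 and 0 in the wild-type libraries. It was close to absent in wild type, with 14, 7 and 2 reads, and had 5771, 5058 and 6682 reads in the mutant libraries. The 3′ exon of 90 bp (chr23:3814267-3814356) had 8364, 8087 and 8898 reads in the mutant libraries and 6168, 7129 and 7481 in the wild-type libraries. The difference of 39.0 points came with a gene count that did not pass the test (log2 change of 0.37 ± 0.16 (SE), adjusted p = 0.157 by edgeR).

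uqcrc2a (ENSDARG00000014794) had reads of a single exon of its pair in the mutant. In its pair of 150 bp exons (chr3:58101220-58101369 and chr3:58119638-58119787) the level was 1.0 in all 3 mutant libraries, against 0.632, 0.671 and 0.619 in the wild-type libraries. The 3′ exon had 0 reads in the mutant libraries, which allows up to 3 counts over the group, and 214, 170 and 220 reads in the wild-type libraries, while the 5′ exon had 500, 375 and 438 in the mutant libraries and 367, 347 and 358 in the wild-type libraries. A pair of 65 bp exons that lies next to it had levels of 1.0 in all mutant libraries, against 0.444, 0.676 and 0.472 in the wild-type libraries. The log2 change of the gene count was 0.09 ± 0.12 (SE), which did not pass the test.

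A 5′ exon of rpl24, which encodes a protein of the large ribosomal subunit, had levels of 0.443, 0.455 and 0.639 in the mutant libraries, against 0.073, 0.049 and 0.16 in the wild-type libraries, on as few as 20 reads in a library. The gene had 4 rows, each with 85 to 297 reads over the 6 libraries together. Its gene counts were far larger, at 25005 to 40740 in the mutant libraries and 22034 to 24728 in the wild-type libraries. They did not pass the test (adjusted p = 0.107 by edgeR). Of the 4 rows 3, with the same 3′ exon, were higher by 40.67 to 41.83 points. The other, at another pair of exons, was lower by the authors' call, at -40.9 points with levels of 0.068, 0 and 0 in the mutant libraries and 0.295, 1.0 and 0 in the wild-type libraries, on as few as 3 reads in a library. In matn4 the exon of 123 bp at chr6:52819686-52819808 had 0.927, 1.0 and 0.87 in the mutant libraries, against 0.723, 0.4 and 0.403 in the wild-type libraries. The groups did not overlap in these rows of rpl24 and matn4, and their means differed by 41.83 and 42.37 points. Of all 19 rows of matn4, 14 were higher and 5 lower in the mutant. aldh2.1 had 2 far pairs, both higher in the mutant, with levels of 0.922, 0.895 and 0.9 in the mutant libraries, against 0.494, 0.826 and 0.396 in the wild-type libraries, for exons of 112 bp, and 0.615, 0.521 and 0.607 in the mutant libraries, against 0.391, 0.43 and 0.286 in the wild-type libraries, for exons of 80 bp. A row of zgc:174855 with exons of 169 bp had 0.843, 0.785 and 0.69 in the mutant libraries, against 0.313, 0.468 and 0.172 in the wild-type libraries, and of its 5 rows 3 were higher and 2 lower. Other genes of the 10 with the largest rise were dtwd2 (an enzyme of tRNA modification; 22.67 points, 15.03 without the second mutant level), cyt1l (20.07 points) and hrsp12 (a deaminase of reactive imines; 19.0 points).

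The largest fall in rows that reached 20 reads per library belonged to hbbe1.1 (ENSDARG00000089963), an embryonic beta globin of red cells. Its exon of 223 bp (chr3:54859745-54859967, plus strand) was paired with exons of the same length that begin 8342 and 16958 bp after its end. Against the nearer one its level was 0.044, 0.043 and 0.04 in the mutant libraries and 0.401, 0.37 and 0.426 in the wild-type libraries. Reads of the exon were 718, 847 and 700 in the mutant libraries, against 6496, 6345 and 7437 in the wild-type libraries, and reads of the nearer 3′ exon were 15566, 19012 and 16859 in the mutant libraries, against 9702, 10816 and 10014 in the wild-type libraries. The groups were apart in both, the 5′ exon lower and the 3′ exon higher in the mutant. The gene count of hbbe1.1 fell as well, to 171, 162 and 160 in the mutant libraries, against 2990, 2947 and 3339 in the wild-type libraries (log2 change of -4.26 ± 0.13 (SE), adjusted p = 4.19e-10 by edgeR). These gene counts are below the reads of its 5′ exon, and the sources used here do not say how either count treats reads that match several globin genes. The nearer 3′ exon had more reads in every mutant library, and which globin gene that exon belongs to was not tested. In whole embryos a change in the number of red cells and a change in globin RNA per cell cannot be told apart. The cause of the fall of hbbe1.1 was not tested.

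On the other strand of the same stretch of chromosome 3, hbae1 and si:ch211-5k11.2, both embryonic alpha globins in the annotation (hbae1.1 and hbae1.2), shared their 5′ exons. Paired with the 208 bp exon at chr3:54866049-54866256, listed under hbae1, the 5′ exon of the same length had levels of 0.779, 0.795 and 0.772 in the mutant libraries, against 0.685, 0.697 and 0.622 in the wild-type libraries. Paired with the 208 bp exon at chr3:54873231-54873438, listed under si:ch211-5k11.2, it had 0.685, 0.823 and 0.648 in the mutant libraries and 0.82, 0.788 and 0.732 in the wild-type libraries, where the groups overlapped. All 4 rows of hbae1 were higher and all 4 of si:ch211-5k11.2 lower in the mutant. Reads of the 3′ exon summed to 3477 in the mutant and 5102 in wild type for hbae1, and to 4771 in the mutant and 2970 in wild type for si:ch211-5k11.2. The gene count of hbae1 fell (log2 change of -2.75 ± 0.13, adjusted p = 3.15e-08 by edgeR) and that of si:ch211-5k11.2 rose (0.73 ± 0.20, adjusted p = 0.029 by edgeR, 0.161 at most when a replicate is left out or the method changed).

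Other large falls came from genes whose gene count did not pass the test. cyt1l had levels of 0.522, 0.7 and 0.558 in the mutant libraries, against 0.912, 0.931 and 0.965 in the wild-type libraries, for exons of 126 and 72 bp. In he1b, a hatching enzyme, the 5′ exon of 118 bp had 0.116, 0.137 and 0.125 in the mutant libraries, against 0.398, 0.523 and 0.29 in the wild-type libraries. arhgdia had 0.372, 0.41 and 0.33 in the mutant libraries, against 0.547, 0.537 and 0.573 in the wild-type libraries, with at least 448 reads in every library. In each of the 3 genes the groups did not overlap, and the mean level was lower in the mutant by 34.27, 27.77 and 18.17 points. pfkpa, a phosphofructokinase of glycolysis, had a pair of 96 bp exons with levels of 0, 0.162 and 0.167 in the mutant libraries, against 0.273, 0.348 and 0.28 in the wild-type libraries. Smaller falls among the 10 were those of impact (a regulator of translation; -14.27 points), kdm6a (a histone demethylase; -13.1 points, -7.58 without the second mutant level), ENSDARG00000095715 (-12.47 points) and dnal4b (a dynein light chain; -12.07 points).

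**Figure D4:**
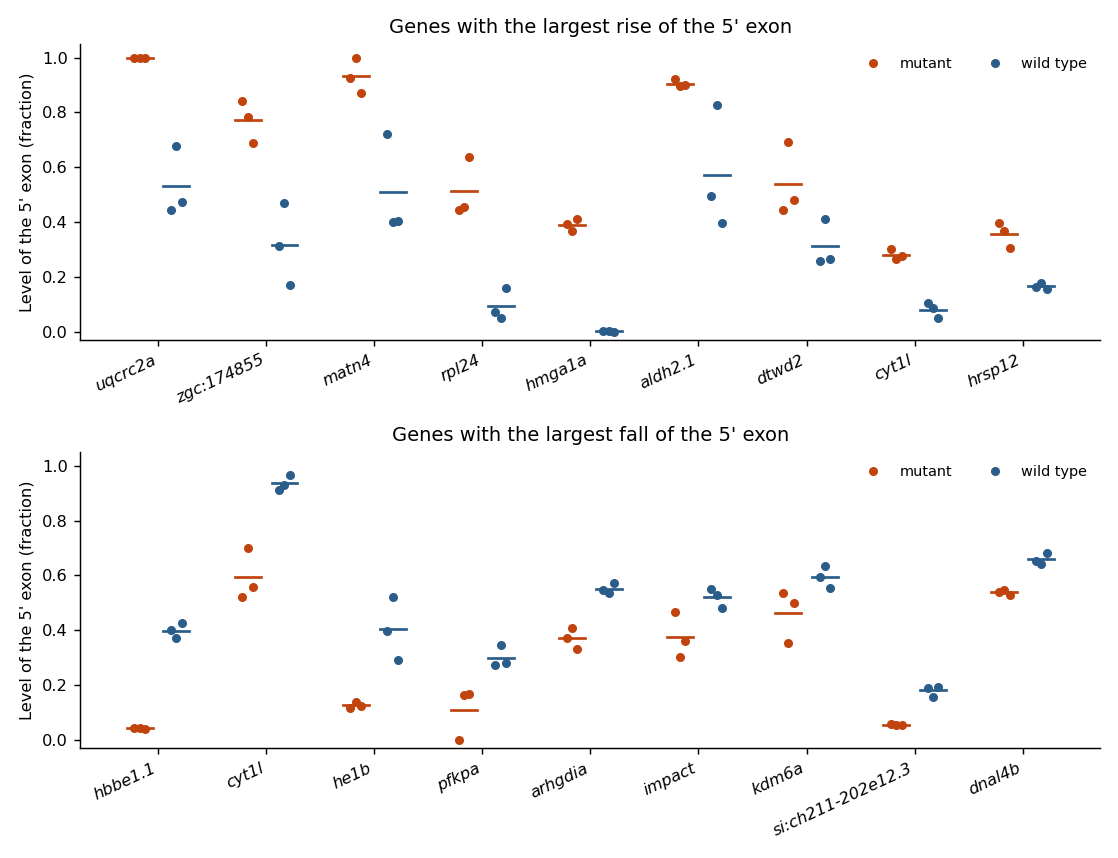
Level of the 5′ exon in each library (vertical axis, fraction; points are libraries and bars are means of 3) for 9 of the 10 genes with the largest rise (upper panel) and 9 of the 10 with the largest fall (lower panel), among rows with at least 20 reads in every library and groups that do not overlap. The mutant levels of hmga1a lie between 0.369 and 0.412 while its wild-type levels are at 0.002 or less, and the mutant levels of hbbe1.1 are at 0.044 or less while its wild-type levels are at 0.37 or more.

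Genes known for textbook mutually exclusive exons were a small part of the sheet. Of a list of 82 genes known for such exons in vertebrates or their zebrafish copies, 16 had a row, 21 rows in all. Among all 16489 genes tested for gene counts, 343 had a row. The share was thus higher in the list, and the difference was not tested. The match was by gene name, so a row need not hold the textbook pair. In pkma, a pyruvate kinase whose mammalian counterpart uses the 5′ exon in the adult muscle form M1 and the 3′ exon in the M2 form, both exons are 167 bp long (chr18:1051998-1052164 and chr18:1054064-1054230). The 5′ exon had levels of 0.385, 0.49 and 0.479 in the mutant libraries, against 0.498, 0.558 and 0.611 in the wild-type libraries, a difference of -10.43 points with groups that did not overlap. Its reads were 101, 117 and 126 in the mutant libraries and 105, 116 and 121 in the wild-type libraries, while the 3′ exon had 161, 122 and 137 in the mutant libraries and 106, 92 and 77 in the wild-type libraries. Reads of the 5′ exon overlapped between the groups, and those of the 3′ exon were higher in every mutant library.

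TPM1 and tpm3, tropomyosins that wrap the actin filament, had pairs of 76 bp exons. TPM1 had levels of 0.189, 0.248 and 0.245 in the mutant libraries and 0.275, 0.237 and 0.258 in the wild-type libraries, and tpm3 had 0.313, 0.389 and 0.291 in the mutant libraries and 0.345, 0.382 and 0.369 in the wild-type libraries. The groups overlapped in both. A further tropomyosin gene, tpma, which is not on the list and is named here after its values were seen, had 4 rows with exons of 3 to 210 bp, none of equal length. Its differences ran from -89.9 to 100 points on 12 to 23 reads in all, and all 4 rows passed in the authors' deposited table. Its gene count rose (log2 change of 0.74 ± 0.16 (SE), adjusted p = 0.00656 by edgeR, 0.0663 at most under the alternatives). In fgfr3, a fibroblast growth factor receptor, exons of 145 bp had levels of 0 in all 3 mutant libraries, against 0.091, 0.137 and 0.125 in the wild-type libraries, on 11, 33 and 42 reads of the 3′ exon in the mutant libraries and 30, 44 and 14 in the wild-type libraries. fgfr1b had exons of 151 and 145 bp and overlapping levels. The stress kinases mapk8a (72 bp exons) and mapk14b (80 bp exons), the collagen hydroxylases p4ha1a and p4ha1b (71 bp exons), the phosphate carrier slc25a3b, the transcription factors mef2d and mef2cb and the Z-disc protein ldb3a likewise had overlapping levels. The rows of fgfr1b and of these genes still passed in the authors' deposited table, except for a row of ldb3a. So did the 76 bp pairs of TPM1 and tpm3. snap25b, a protein of synaptic vesicle fusion, had levels that did not overlap, at 0.235, 0.41 and 0.276 in the mutant libraries and 0.231, 0.212 and 0.202 in the wild-type libraries, but its row did not pass in the authors' deposited table, at 0.117. The rows of camk2b1 and mef2ca had libraries with 1 read or none.

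Of 67 muscle and lens genes looked up, 6 had a row, 14 rows in all, and all of them are muscle genes. This stands beside 343 of all 16489 genes tested for gene counts, and the difference in share was not tested. neb had 7 rows in both directions on few reads, pdlim5a 3 rows, and lmo7b, pdlim5b, svila and tnnt3b a single row each. pdlim5b, a Z-disc protein, had levels of 0.769, 0.644 and 0.515 for an exon of 542 bp in the mutant libraries, against 1.0, 0.92 and 0.619 in the wild-type libraries. tnnt3b, the fast muscle troponin T, had 0.473, 0.678 and 0.441 in the mutant libraries and 0.36, 0.651 and 0.321 in the wild-type libraries. The groups overlapped in both genes. The 2 neb rows whose groups did not overlap, at -19.37 and -16.57 points, had libraries with fewer than 20 reads. No crystallin of the list had a row.

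Further pairs of equal length with groups apart and at least 16 reads in every library included those of sun1, cenpe and cyp2aa9. This bound is below the minimum of 20 reads used elsewhere and is not part of the naming rules. sun1, of the nuclear envelope, had exons of 108 bp with levels of 0.313, 0.267 and 0.3 in the mutant libraries, against 0.471, 0.556 and 0.55 in the wild-type libraries. cenpe, a kinetochore motor, had exons of 273 bp with 0.864, 0.801 and 0.884 in the mutant libraries, against 0.713, 0.732 and 0.791 in the wild-type libraries. cyp2aa9 had 142 bp exons 49709 bp apart with 0.593, 0.71 and 0.783 in the mutant libraries, against 0.4, 0.465 and 0.556 in the wild-type libraries. The differences were -23.23, 10.43 and 22.17 points. Equal pairs whose levels overlapped included col5a1 (69 bp), tead3a (63 bp), rab6a (106 bp), rbfox2 (43 bp), eya4 (101 bp) and srpk1a (93 bp).

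Some of the exons were also listed as plain skipped exons. This held for 146 of the 886 exons (16.5%), which is 8.3% of the distinct skipped exons, and 138 genes were in both sheets, 39.3% of the genes with a mutually exclusive pair and 10.6% of the 1296 genes with a skipped exon. Where the 5′ exon was also a skipped exon, both levels differed in the same direction in 71 of 98 rows, and where the 3′ exon was, they differed in opposite directions in 116 of 144 rows. The classes share reads, so this is a count and no independent measure. No minimum of reads was set for it, and rows that reuse a skipped exon, as many of cyt1l do, were each counted.

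Gene counts are a readout that the choice of the rows did not use. Of the 351 genes, 343 passed a minimum mean of 0.5 FPKM, and 41 of them (12%) passed the test between mutant and wild type, 18 higher and 23 lower, against 14.2% of all 16489 genes tested, of which 6.71% were higher and 7.48% lower. The share is near that of all genes. The median log2 change was 0.024 over these genes and -0.002 over all genes. Without mutant replicate 2 the count was 118 of 343 (34.4%, 73 higher and 45 lower) beside 29.3% of all genes, and without wild-type replicate 3 it was 22 (6.41%) beside 8.29%.

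Of the 76 genes whose levels did not overlap, 10.5% passed, beside 14.2% of all genes tested: 8 genes, 4 higher and 4 lower. Among them hbbe1.1, hbae1 and the keratin gene cyt1 fell, and hrsp12, slc25a20 (the carnitine carrier of mitochondria), rca2.1 and sgol1 (a protector of centromere cohesion) rose. hrsp12 had counts of 1527, 1420 and 1474 in the mutant libraries, against 677, 679 and 845 in the wild-type libraries (log2 change of 0.98 ± 0.12 (SE), adjusted p = 0.000104 by edgeR). Of the 51 tested genes with an equal pair, 11 passed (21.6%), 2 higher and 9 lower. Among all genes tested 14.2% passed, 6.71% higher and 7.48% lower. The difference in share was not tested, and the set is small. txlnba and si:ch211-5k11.2 rose, and those that fell included hbbe1.1, hbae1, acsl1a, mapk14b, p4ha1a, znf740a, abcd3a and col5a1. txlnba, a muscle taxilin, had counts of 556, 501 and 731 in the mutant libraries, against 175, 240 and 176 in the wild-type libraries (log2 change of 1.56 ± 0.16 (SE), adjusted p = 2.98e-05 by edgeR). Of the 16 genes of the textbook list 0 rose and 3 fell (18.8%), mapk14b, p4ha1a and mef2ca. Of the 5 tested genes of the muscle and lens list 1 rose (20%), tnnt3b (log2 change of 0.49 ± 0.13, adjusted p = 0.0202 by edgeR). Both lists are too short for their shares to be read against the 14.2% of all genes. Under the alternatives, a replicate left out included, the highest adjusted p was 0.0507 for cyt1, 0.0546 for rca2.1, 0.193 for sgol1, 0.108 for col5a1 and 0.141 for tnnt3b (edgeR, DESeq2 or limma), so these 5 calls did not hold throughout.

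**Figure D5:**
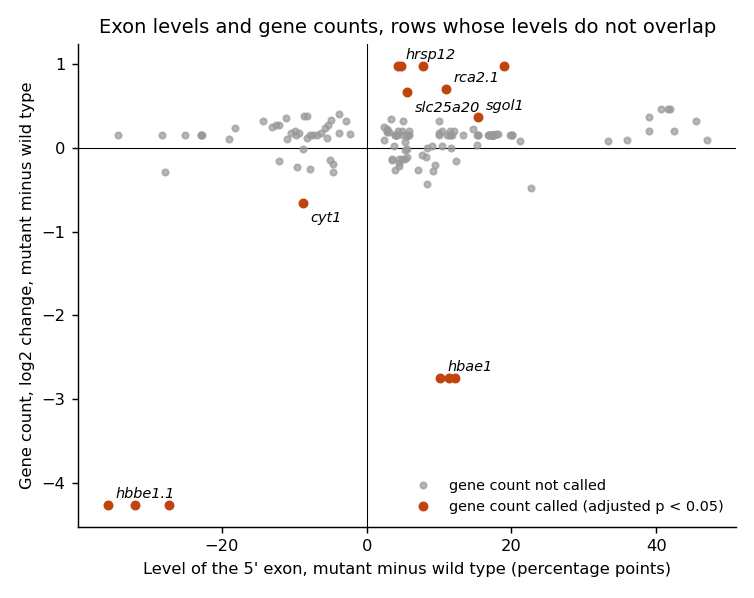
Log2 change of the gene count, mutant minus wild type (vertical axis), against the difference in the level of the 5′ exon, mutant minus wild type (horizontal axis, percentage points), for 145 of the 152 rows whose levels do not overlap; rows of a gene share the vertical value. The names mark 7 genes that passed the test, with 14 rows, and hbbe1.1 at a log2 change of -4.26 and hbae1 at -2.75 lie far below the rest.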

How the data were processed

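RNA of whole zebrafish embryos was sequenced as 100 bp paired ends, per the labels' protocols. HISAT2 2.0.1, HTSeq 0.6.1, DESeq2, bcl2fastq 2.17.1.14, cutadapt and the assembly GRCz11 are named, without role, per the submitters' processing notes, and the tool behind the splicing sheets is not named. The authors deposited whole-number counts per gene and FPKM values per gene. For each splicing row the authors deposited levels as a fraction from 0 to 1, read counts of both forms, a p-value, an FDR and a difference score, the mean wild-type level minus the mean mutant level; the sign is turned here, to mutant minus wild type in percentage points. The level is the share of the 5′ exon, normalised for length: in all 560 rows the length of its form was that of the 5′ exon plus 149 bp, which cannot tell the exons apart in the 102 rows of equal length. Levels in a cell carry no replicate number and are given in the order of the file. In 604 of 2240 cells the 3 counts had been merged into 1 number, and these were parted so that they gave back the levels within 0.00051 (1000 of 1000 simulated cells were recovered). In 6 rows more than 1 reading was possible, and the most even was taken; no reads of these rows are printed. Sequences are not shown, since no genome of this assembly was used here.

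The test of gene counts was the two-sided quasi-likelihood test of edgeR 4.0.16 in R 4.3.3, with TMM scaling and Benjamini-Hochberg adjustment over the 16489 genes whose mean reached 0.5 FPKM, at a threshold of 0.05; limma 3.58.1 and DESeq2 1.42.0 were alternatives. The fit was tested on simulated data. Levels were not tested, as 3 against 3 cannot go below p = 0.10 in an exact permutation test. Genes were named by these rules: the 10 largest rises and falls, 1 row per gene, among rows with at least 20 reads in every library and groups that do not overlap; pairs of equal length; the 10 genes with most rows; and the textbook and muscle and lens lists. The rows, lists and rules were chosen with earlier results of these data known. Values of some genes that these rules select are not reported here.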

Additional observations from a re-analysis of the deposited data

How the results depend on the processing

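The minimum of 20 reads on the level differences, the rows without cyt1l and the restriction to called rows were chosen after seeing the data. The 152 rows whose levels did not overlap became 129 with 50 reads in every library, 164 with 10 reads and 220 with no minimum of reads. The 220 include rows that lack a level, and of the 479 rows with all 6 levels 184 did not overlap. The count was 69 with 1 row per gene and 109 without cyt1l. It was 181 to 190 with a level left out. Leaving out a level can only keep or raise the count, so that range is no check of it. The median difference of 10.45 points over all 560 rows was 6.77 with at least 20 reads in every library, 22.77 among rows of at least 10 points and 9.92 to 10.78 with a level left out. Rows lower in the mutant numbered 252, and 126 with at least 20 reads in every library; those higher numbered 308 and 206. With reads summed over the libraries 11 of the 560 rows turned round. Among the named rows that the authors called, these were adam23a (2.45 points) and znf740a (9.13 points). Turns with a level left out were sought only in the 139 named rows, and only where the row passed in the authors' deposited table. With a level left out the direction turned in adam23a (-43.13 to 6.87 points), khk (-21.43 to 7.37), ubr2 (-20.9 to 1.6), usp3 (-8.93 to 0.37), si:dkey-239j18.2 (-18.37 to 4.93), map7d1b (-2.37 to 22.87), gsta.1 (-3.18 to 16.42), a row of znf740a (-26.8 to 23.2) and 2 rows of matn4 (-16.7 to 3.15 and -0.6 to 9.03); the cause was not tested. Pairs of equal length numbered 72 to 127 under the alternatives, against 94.

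The 41 called genes became 34 to 52 with DESeq2, limma or another minimum. The 34 were 13.4% beside 18.1% of all genes, and the 52 were 14.8% beside 12.2%. With a replicate left out there were 22 (6.41% beside 8.29% of all genes) to 118 (34.4% beside 29.3%). With at least a 2-fold change there were 8 (2.33% beside 5.17%). With the replicate number as a block there were 64 (18.7%), and 3387 of all genes (20.5%). The deviations of same-numbered libraries correlated at 0.19, 0.322 and 0.052, and those of libraries with unlike numbers at -0.306 to 0.155. Mutant replicates 1 and 2 correlated best with the wild-type library of the same number. Mutant replicate 3 correlated best with wild-type replicate 1, at 0.085. The numbers were not taken to pair the samples, and these values do not settle whether they do. Limits are the read depth of 228 rows and the choice of rows by p.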
